A study of Mus musculus with 2 samples.

Results

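Promoters of long noncoding RNA (lncRNA) genes were examined in DNase-seq of mouse hippocampus, a method in which DNase I cuts DNA that is neither wound on nucleosomes nor covered by protein and the cut ends are sequenced. The material was 1 group of 2 libraries, labelled as biological replicates 1 and 2, from female B6CASTF1/J mice aged 2 months, the F1 cross of the C57BL/6J and CAST/EiJ strains. One label field gives the tissue as a layer of hippocampus, another as hippocampus, and no treatment or transgene is given. Both libraries carry 1 donor record and separate biosample records, so the spread between them may be technical, and no p-value was computed. The 1475 regions described were chosen by their peaks: each had a peak of the longer deposited list in both libraries, lay within 1000 bp of the start of a GENCODE M21 transcript of a lincRNA, antisense, processed_transcript or bidirectional promoter lncRNA gene, and lay over 1000 bp from the start of every protein-coding transcript. They were 1475 of 58484 regions with a peak in both libraries. The others were 17918 coding promoters, within 1000 bp of a protein-coding start, and 39091 distal regions. Peak values belong to the choice of the regions and are given as a description.

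An lncRNA is a transcript that is processed like a messenger RNA but has no recognised protein. A lincRNA lies between protein-coding genes, an antisense lncRNA overlaps one on the other strand, a bidirectional promoter lncRNA starts back to back with a coding gene, and processed transcript is the annotation's class for the rest, among them many genes whose introns carry small nucleolar RNAs or microRNAs. In brain, lncRNAs are known as nuclear structural RNAs such as Malat1, as the silencing RNAs of imprinted loci and of the X chromosome, and as hosts of neuronal microRNAs. An accessible start is needed for transcription, but accessibility alone does not measure it.

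The sequences of 8 lncRNA promoters are shown to give the letters behind the CpG ratios and motifs described for the regions. Each is the 300 bp around the middle of the region, read on the strand of the lncRNA from the RefSeq GRCm38.p6 assembly (mm10). The first 6 are the highest of the regions, by mean percentile of the peak value over both libraries, that hold a given motif, that have at most 10% of their 31-mers elsewhere in the genome, and that touch no coding exon. Capitals mark every match to the motif named, on either strand. The 6720427I07Rik window (chr13:48546481-48546780, minus strand) holds 4 matches to the SP and KLF box GGGCGG, which is bound by zinc finger activators of CpG-rich promoters. In the Tmem250-ps window (chr2:26140401-26140700, minus strand) the cAMP response element TGACGTCA, the site of CREB, lies 19 bp upstream of the annotated start. The Gm13421 window (chr2:27540151-27540450, plus strand) holds the NRF1 site GCGCATGCG, that of a regulator of nuclear genes for mitochondria, also 19 bp upstream. The Mir22hg window (chr11:75461361-75461660, plus strand) holds the RFX site GTTGCCNNG 30 bp downstream. The 4632415L05Rik window (chr3:19894611-19894910, plus strand) holds the consensus of CTCF, the protein that anchors chromatin loops, 78 bp upstream. The Snhg8 window (chr3:123508321-123508620, minus strand) holds the TATA box TATAAA 41 bp downstream of the annotated start. Then 2 regions of well-known lncRNAs follow, each with the motif it holds that the fewest of all shared regions hold: Meg3 (chr12:109542891-109543190, plus strand) with NRF1 and Malat1 (chr19:5803501-5803800, minus strand) with GGGCGG.
6720427I07Rik: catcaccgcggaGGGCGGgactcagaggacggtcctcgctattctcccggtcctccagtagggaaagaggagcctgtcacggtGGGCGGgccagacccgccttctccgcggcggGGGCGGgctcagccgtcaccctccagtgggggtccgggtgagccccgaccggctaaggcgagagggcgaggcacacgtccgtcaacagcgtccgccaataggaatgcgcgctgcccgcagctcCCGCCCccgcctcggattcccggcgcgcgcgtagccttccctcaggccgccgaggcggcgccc
Tmem250-ps: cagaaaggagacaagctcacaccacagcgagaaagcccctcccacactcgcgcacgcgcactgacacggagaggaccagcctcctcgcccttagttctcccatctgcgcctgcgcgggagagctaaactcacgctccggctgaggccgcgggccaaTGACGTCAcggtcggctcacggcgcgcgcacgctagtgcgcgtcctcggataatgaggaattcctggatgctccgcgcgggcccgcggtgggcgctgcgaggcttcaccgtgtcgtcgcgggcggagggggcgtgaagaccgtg
Gm13421: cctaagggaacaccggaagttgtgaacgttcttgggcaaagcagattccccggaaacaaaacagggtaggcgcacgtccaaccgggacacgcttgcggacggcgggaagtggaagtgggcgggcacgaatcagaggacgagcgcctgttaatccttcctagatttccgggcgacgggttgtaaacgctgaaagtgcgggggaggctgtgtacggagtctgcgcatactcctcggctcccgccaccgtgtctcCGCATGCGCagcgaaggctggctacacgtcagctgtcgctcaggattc
Mir22hg: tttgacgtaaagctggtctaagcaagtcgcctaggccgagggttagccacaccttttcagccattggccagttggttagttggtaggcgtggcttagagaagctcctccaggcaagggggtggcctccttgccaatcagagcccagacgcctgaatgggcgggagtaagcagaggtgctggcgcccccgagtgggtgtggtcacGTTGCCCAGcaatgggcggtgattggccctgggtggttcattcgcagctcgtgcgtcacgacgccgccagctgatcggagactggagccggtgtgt
4632415L05Rik: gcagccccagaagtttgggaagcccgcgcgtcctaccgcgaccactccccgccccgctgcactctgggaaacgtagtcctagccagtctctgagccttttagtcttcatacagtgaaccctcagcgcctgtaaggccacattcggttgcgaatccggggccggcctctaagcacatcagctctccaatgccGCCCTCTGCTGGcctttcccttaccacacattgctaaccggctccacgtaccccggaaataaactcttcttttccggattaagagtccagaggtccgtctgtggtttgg
Snhg8: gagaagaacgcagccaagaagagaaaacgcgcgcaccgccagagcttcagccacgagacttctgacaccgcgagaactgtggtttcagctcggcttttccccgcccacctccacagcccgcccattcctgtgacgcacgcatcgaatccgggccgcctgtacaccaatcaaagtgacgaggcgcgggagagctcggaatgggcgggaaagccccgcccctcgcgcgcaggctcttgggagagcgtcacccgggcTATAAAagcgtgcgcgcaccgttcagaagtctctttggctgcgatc
Meg3: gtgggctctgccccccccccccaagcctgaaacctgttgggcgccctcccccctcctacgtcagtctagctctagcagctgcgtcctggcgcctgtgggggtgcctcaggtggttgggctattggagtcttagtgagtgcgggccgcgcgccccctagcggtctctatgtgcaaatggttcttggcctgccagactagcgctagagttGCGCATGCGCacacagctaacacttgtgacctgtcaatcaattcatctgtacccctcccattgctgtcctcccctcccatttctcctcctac
Malat1: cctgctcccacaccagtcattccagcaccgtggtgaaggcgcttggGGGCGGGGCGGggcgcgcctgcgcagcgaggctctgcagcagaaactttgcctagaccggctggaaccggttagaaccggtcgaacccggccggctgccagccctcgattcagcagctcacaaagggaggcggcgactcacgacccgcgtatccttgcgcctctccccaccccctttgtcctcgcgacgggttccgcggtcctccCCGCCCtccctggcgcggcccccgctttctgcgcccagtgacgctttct

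The first 6 of these windows and that of Malat1 are GC-rich and dense in the pair cg, as most coding promoters are. The Meg3 window shown, that of the higher of its 2 regions, has fewer cg pairs, with a ratio of observed to expected CpG of 0.444, against 0.952 for 6720427I07Rik and 1.14 for Tmem250-ps. Its NRF1 site lies 835 bp inside the gene from the nearest annotated start, and the window of the other Meg3 region, over the start, has a ratio of 0.609 and a GC content of 53.3%. The GGGCGG match of Malat1 nearest to an annotated start lies 874 bp upstream of it, and the region itself is centred 979 bp upstream.

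Across the libraries, replicate 1 had 129779 peaks and 227153 footprints, and replicate 2 had 71895 peaks and 118610 footprints. Peak values below 1 fell on a ladder of equal steps, within 0.05 steps, which gives the lncRNA promoters a depth in steps. The median lncRNA promoter was 147 steps high in replicate 1 and 101 in replicate 2, and the lowest 21 and 24. A step is 1 tag if the unstated scale is tags per M. Promoters of the hippocampal excitatory neuron markers had a peak in both libraries at 9 of 9 genes. The counts were 1 of 3 for interneurons, 1 of 3 for astrocytes and 2 of 3 for oligodendrocytes. They were 0 of 3 for microglia, 0 of 2 for endothelium and 0 of 3 for other tissues. Aqp4 of astrocytes, Mog of oligodendrocytes, and Csf1r and P2ry12 of microglia had a peak in replicate 1 only, the library with more peaks. In bulk tissue, fewer cells of a type and weaker accessibility per cell cannot be told apart.

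Most accessible regions near lncRNA starts also lay beside a coding start and were therefore not among the 1475. Of 3515 shared regions within 1000 bp of an lncRNA start, 2040 were also within 1000 bp of a protein-coding start. What remained depended on the class of the nearest lncRNA. Members were 888 of the 1336 regions nearest to a lincRNA, 372 of 1364 at antisense lncRNAs and 213 of 583 at processed transcripts. Bidirectional promoter lncRNAs gave 2 of 232, since such a gene starts next to a coding gene by definition. Those 2 regions were at Gm20501, with values of 2.82 in replicate 1 and 1.86 in replicate 2, and at 2310014F06Rik, with 0.557 and 0.856.

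Far from coding starts is where these regions mostly lay, as did distal regions. The choice of regions had left out those within 1000 bp of such a start. Distal regions, also over 1000 bp away, had a median distance of 35587 bp (quartiles 12081 and 102780 bp). For the lncRNA promoters the quartiles were 10307 and 86669.5 bp. Their median distance to the nearest protein-coding start was 34839 bp, with 1239 of the 1475 (84.0%) over 5 kb, 592 over 50 kb and 343 over 100 kb away. Even so, 363 (24.6%, 95% Wilson interval 22.5 to 26.9) lay in the body of a protein-coding gene. For 329 of these the coding gene ran on the opposite strand only, for 28 on the same strand only, and for 6 on both. Of the 1475, 79 regions (5.36%) were within 1000 bp of the start of a noncoding transcript of a protein-coding gene, which the choice of regions allowed.

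On the chosen cut, the members just inside had edges 998 bp from the start at AC102255.2 (values 0.442 and 0.609 in replicates 1 and 2) and at Frmd8os (6.45 and 3.24), and 996 bp at D14Ertd670e (1.21 and 1.21). Just outside were regions at 1002 bp from Dleu2 (1.37 and 1.59) and F630040K05Rik (0.610 and 0.660) and at 1003 bp from Gm47207 (0.920 and 0.423). The 65 regions in the last 100 bp inside had median values of 1.14 in replicate 1 and 0.949 in replicate 2, and the 74 in the next 100 bp outside had 1.15 and 0.991. On the coding side, members began at 1019 bp, at 5031434O11Rik and Gm44089, and the nearest region left out was at 1000 bp, at Gm29491.

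Accessible sites at lncRNA starts were centred just upstream of the start, as at coding genes, but less tightly. The middle of a region lay a median of 43 bp upstream (quartiles 226 bp upstream and 256.5 bp downstream) at lncRNAs and 27 bp upstream (quartiles 104 bp upstream and 136 bp downstream) at coding promoters. It was within 200 bp of the start for 682 of 1475 lncRNA promoters (46.2%, 43.7 to 48.8) and for 11642 of 17918 coding promoters (65.0%). The region covered the start itself at 579 lncRNA promoters (39.3%) and at 11345 coding promoters (63.3%). The other 896 lncRNA promoters lay off every annotated start of these lncRNA classes.

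**Figure D1:**
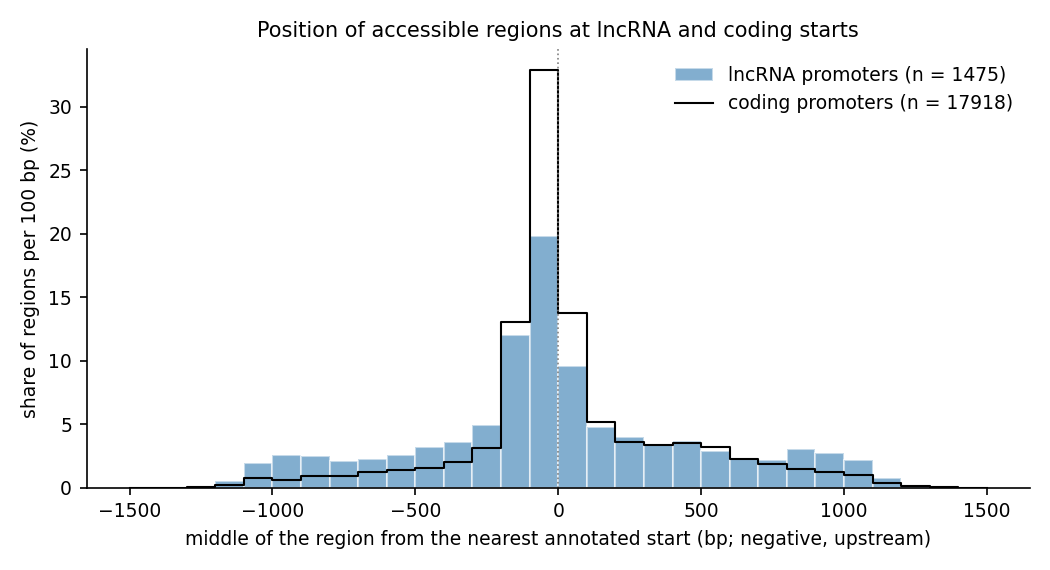
Share of regions per 100 bp bin (vertical axis, percent) by distance of the region's middle from the nearest annotated start (horizontal axis, bp, upstream negative), for lncRNA promoters (filled bars, n = 1475) and coding promoters (black line, n = 17918). Both are highest in the 100 bp upstream of the start, at 19.8% of lncRNA promoters and 32.9% of coding promoters, and the lncRNA promoters have more in the flanks.

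Regions over the start had higher values than those beside it. The 579 lncRNA promoters over a start had median values of 1.46 in replicate 1 and 1.17 in replicate 2, and the 896 off a start had 1.19 and 0.996. The difference was larger at coding genes, where regions over the start had 2.99 and 2.56, and regions 1 to 250 bp away 1.24 and 1.31. At 251 to 500 bp the lncRNA promoters (221 regions) had 1.18 and 0.970 and the coding promoters (1925 regions) 0.840 and 0.970.

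In peak value the lncRNA promoters stood between coding promoters and distal regions, closer to the distal regions. The median was 1.30 in replicate 1 (quartiles 0.769 and 2.14) and 1.04 in replicate 2 (0.702 and 1.73). Coding promoters had medians of 2.06 and 1.85, distal regions 1.08 and 0.846, and all shared regions 1.21 and 0.991. The mean of the 2 library medians was 1.17 ± 0.182 for lncRNA promoters (SD, n = 2), 1.95 ± 0.151 for coding promoters and 0.962 ± 0.165 for distal regions. The order of the classes was the same in both libraries, while the gap between lncRNA promoters and distal regions was of the size of the spread between libraries. Replicate 1 had the higher median in each class, so that spread includes a shift common to the classes.

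**Figure D2:**
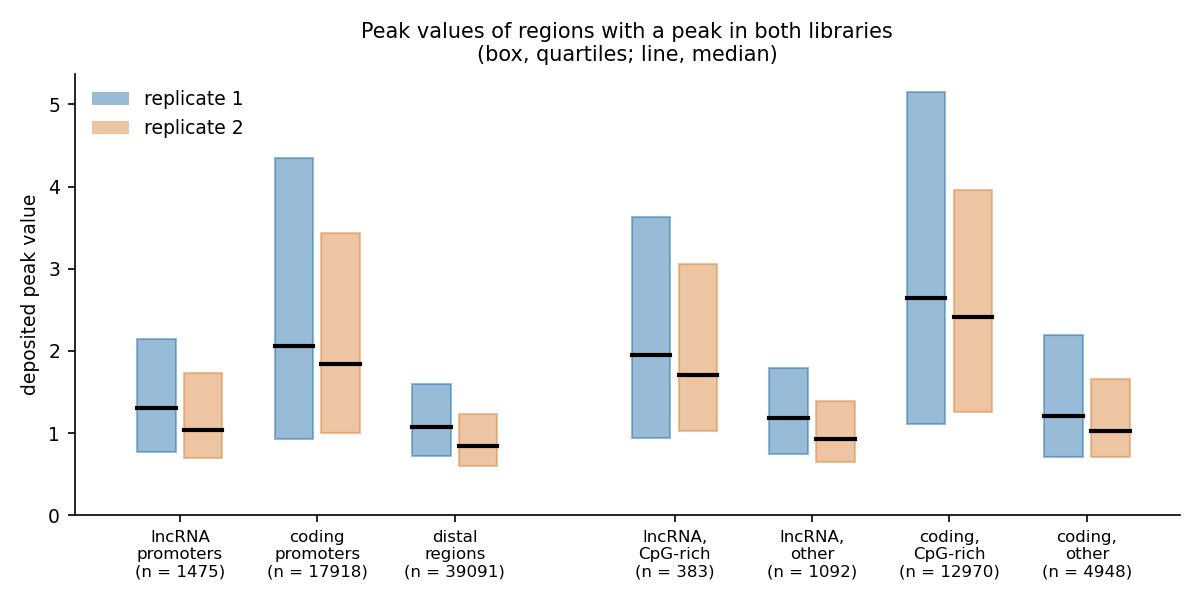
Deposited peak value (vertical axis, the authors' scale) of regions with a peak in both libraries, by class, with replicate 1 in blue and replicate 2 in orange. Boxes span the quartiles and black lines are medians. The 383 CpG-rich lncRNA promoters have medians of 1.95 and 1.70, and the other 1092 have 1.18 and 0.929.

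Footprints, short protected stretches inside a peak at a deposited FDR of 0.01, were found in both libraries in 1128 of 1475 lncRNA promoters (76.5%, 74.2 to 78.6). The share was 78.8% of coding promoters, 71.3% of distal regions and 73.7% of all shared regions. It was 82.6% at processed transcripts, 76.4% at lincRNAs and 73.4% at antisense lncRNAs. No footprint in either library was found in 65 lncRNA promoters. A peak in the stricter, shorter list of both libraries was present at 857 lncRNA promoters (58.1%, 55.6 to 60.6), 76.8% of coding promoters, 48.8% of distal regions and 57.6% of all shared regions. This share was thus near the background. Values in the highest 10% of all shared regions in both libraries were less frequent than the background of 8.50%. Such values, at least 3.94 in replicate 1 and 3.15 in replicate 2, were found in 92 lncRNA promoters (6.24%, 5.11 to 7.59), 24.95% of coding promoters and 1.05% of distal regions.

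The share of lncRNA promoters in CpG-rich sequence equalled that of all shared regions. A window was called CpG-rich at a GC content of at least 50% and a CpG observed over expected ratio of at least 0.6 in 300 bp. That held for 383 lncRNA promoters (26.0%, 23.8 to 28.3), 72.4% of coding promoters, 4.799% of distal regions and 26.0% of all shared regions. The median CpG ratio was 0.427 at lncRNA promoters, 0.778 at coding promoters and 0.257 at distal regions, and median GC content was 54.0%, 63.7% and 49.3% in the same classes. Processed transcripts were CpG-rich at 40.4% (34.0 to 47.1) of their regions, antisense lncRNAs at 25.8% (21.6 to 30.5) and lincRNAs at 22.6% (20.004 to 25.5). The share was 36.1% in regions over the start and 19.4% in regions off it.

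CpG-rich lncRNA promoters had the higher peak values. Their medians were 1.95 in replicate 1 and 1.70 in replicate 2, against 1.18 and 0.929 in the other lncRNA promoters. Within CpG-rich windows coding promoters had 2.64 and 2.41, and outside them 1.20 and 1.03, so the CpG-poor lncRNA and coding promoters differed by less than the 2 libraries did. CpG-poor distal regions had 1.07 and 0.825. The highest 10% of all shared regions in both libraries held 20.1% of CpG-rich and 1.37% of CpG-poor lncRNA promoters. Footprints in both libraries were found in 84.3% and 73.7% of the same groups.

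**Figure D3:**
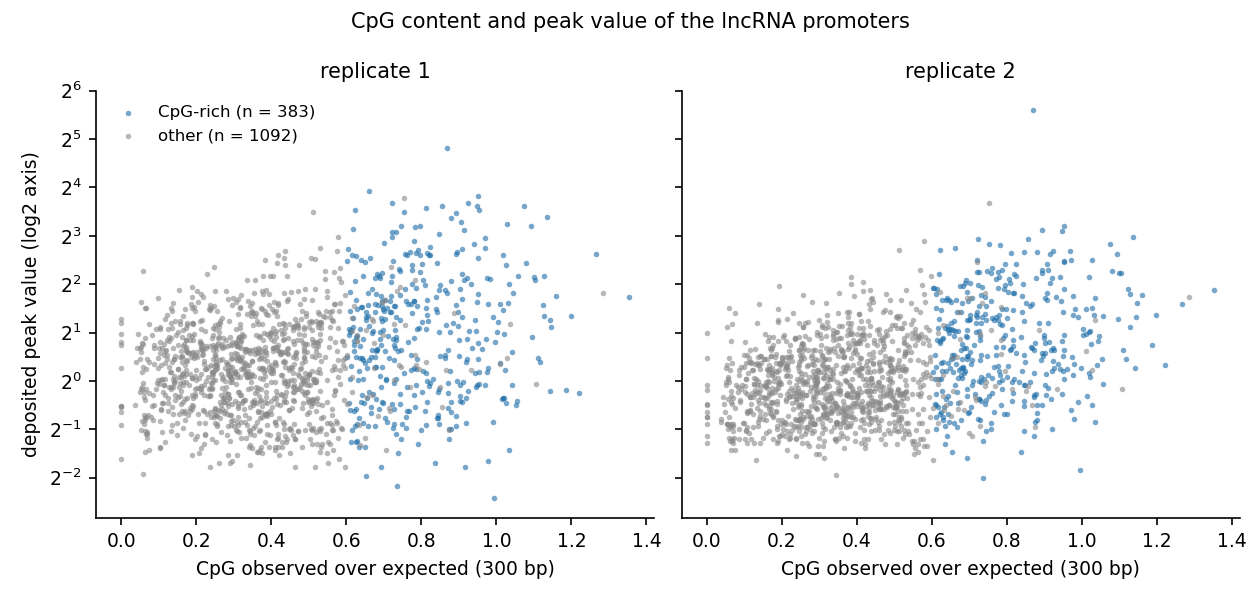
Deposited peak value (vertical axis, log2 scale) against CpG observed over expected in 300 bp (horizontal axis) for each lncRNA promoter, in replicate 1 (left) and replicate 2 (right). Blue points are the 383 CpG-rich regions and grey points the other 1092, and most of the high values are blue in both libraries, though blue points also reach the lowest values.

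Motifs bound by promoter factors were shared between the classes in the same graded way. Each motif was searched on both strands in the same 300 bp windows, and a match is only a match of letters. GGGCGG was in 28.1% (25.8 to 30.4) of lncRNA promoters, 62.1% of coding promoters, 11.1% of distal regions and 27.2% of all shared regions. The ETS site CCGGAAG was in 6.03%, 14.2%, 1.97% and 5.82% of those classes, and the cAMP response element in 1.97%, 2.98%, 0.430% and 1.25%. The NFY box CCAAT, a short motif, did not separate them, with 34.2%, 33.9%, 34.1% and 34.0%. In CpG-rich windows alone, GGGCGG was in 61.9% of lncRNA and 73.6% of coding promoters, and CCGGAAG in 9.92% and 17.5%. There the cAMP response element had the other order, with 4.96% (3.20 to 7.62) of lncRNA and 3.52% (3.22 to 3.85) of coding promoters. The part of CpG content in the graded shares was not tested.

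Motifs that are more frequent away from coding promoters were also in between. The E-box CAGATG, the form bound by neuronal basic helix-loop-helix factors such as Neurod, was in 25.6% (23.4 to 27.8) of lncRNA promoters, 12.2% of coding promoters, 38.3% of distal regions and 29.97% of all shared regions. The E-box CAGCTG was in 22.5%, 17.4%, 25.9% and 23.2% of those classes, the NFI site TTGGCA (one arm of the full site) in 22.9%, 11.8%, 27.6% and 22.6%, and the AP-1 site TGANTCA in 9.56%, 4.197%, 13.5% and 10.6%. The CTCF consensus was in 5.97%, 1.58%, 9.27% and 6.83%, and that of MEF2 in 2.85%, 0.999%, 3.93% and 3.004%. TATAAA was in 7.86%, 4.002%, 11.5% and 9.13%.

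The RFX site GTTGCCNNG did not follow the graded order. It was in 125 lncRNA promoters (8.47%, 7.16 to 10.01), 6.18% of coding promoters, 5.89% of distal regions and 6.04% of all shared regions. The difference was not tested. RFX factors are known as regulators of cilia genes. The lncRNA promoters with the site had median values of 1.60 and 1.20 in replicates 1 and 2, against 1.26 and 1.03 in those without it. Those with the CTCF consensus had 1.61 and 1.47, against 1.26 and 1.02 in those without, and 93.2% of the 88 had a footprint in both libraries. The highest medians among motifs found in 20 or more lncRNA promoters were at the 20 with the NRF1 site, 3.20 and 2.57, and at the 29 with the cAMP response element, 2.23 and 1.86. Of those regions 70.0% and 65.5% were CpG-rich, and the part of CpG content in these values was not tested. YY1 and EGR sites were each in 6 lncRNA promoters and REST in 3.

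**Figure D4:**
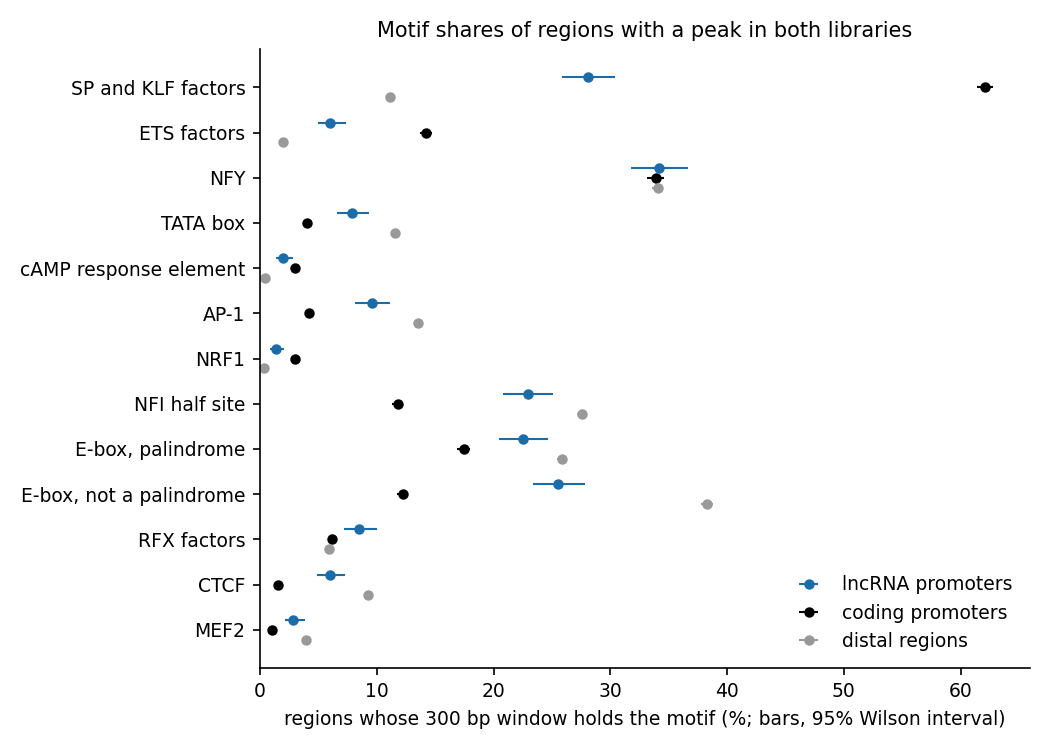
Share of regions whose 300 bp window holds a motif (horizontal axis, percent, bars for the 95% Wilson interval) for lncRNA promoters (blue), coding promoters (black) and distal regions (grey), for the motifs in at least 1% of lncRNA promoters. The E-box that is a palindrome is CAGCTG and the one that is not is CAGATG. The blue points lie between black and grey for most motifs, with RFX to the right of both and the NFY points on top of each other.

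Most lncRNA genes away from coding starts had no region with a peak in both libraries, which does not show that their promoters were closed. Of 8251 lncRNA genes with a start over 1000 bp from every protein-coding start, 1236 (14.98%, 14.2 to 15.8) had one of the regions. Counted in 1 library alone, the share was 23.6% in replicate 1 and 16.3% in replicate 2. Among protein-coding genes, 12824 of 21901 (58.6%) had a shared region within 1000 bp of a start. The lncRNA and coding shares are not counted alike. For lncRNAs, 1542 of 9793 genes and all regions beside coding starts were left out. Processed transcripts had the highest share, 26.2% (22.8 to 30.0), with 14.8% (13.4 to 16.4) for antisense lncRNAs and 13.9% (13.0 to 14.8) for lincRNAs. Genes annotated with 2 or more starts had a region at 21.9%, and those with 1 transcript at 12.5%. On chromosome X the share was 17.6% (12.3 to 24.5) and on autosomes 16.02%. The 8251 genes, and the shares by class, include 551 genes on chromosome Y. None of these 551 had a region, with an upper Wilson bound of 0.692%. Of all shared regions, 19 were on Y in these mice labelled female.

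The share with a region was larger among host genes of small RNAs than among other lncRNA genes. MicroRNA hosts had a region at 46 of 104 genes (44.2%, 35.1 to 53.8), small nucleolar RNA hosts at 23 of 59 (39.0%, 27.6 to 51.7), and genes that host neither at 14.4% (13.7 to 15.2). The intervals cover counting error over genes, not animals, and the difference was not tested. Hosts were not matched to the other genes in length or in number of starts, with which the share also differed. Mir22hg, the host of miR-22, had the highest value of the named hosts, 15.2 in replicate 1 and 6.72 in replicate 2, with 4 footprints in each. A second Mir22hg region, centred 928 bp upstream, had 4.52 and 1.73.

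Among the other microRNA hosts the values were lower. Where a listed gene had several regions, the highest is given. C130071C03Rik, a host of the neuronal miR-9, had 3.76 and 3.20 in replicates 1 and 2, Mir9-3hg 1.37 and 1.86, and Mir124a-1hg, a host of the neuronal miR-124, 2.44 and 1.51. Mir670hg had 3.11 and 3.27, and Mir17hg, host of a cluster known from proliferating cells, 1.42 and 1.31. In all, 9 of the 13 genes on the list of microRNA hosts that were found in the annotation had a region. The other 4, Mir124-2hg, Mir155hg, Mirt1 and Mir142hg, had a peak in replicate 1 only, the library with more peaks. Mirt1 was on the list, but whether it hosts a microRNA was not checked. MiR-142 and miR-155 are known from blood and immune cells.

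Small nucleolar RNA hosts make the guide RNAs of ribosomal RNA modification and are transcribed in most cells. Of 15 found in the annotation, 8 had a region and the other 7, among them Gas5, Snhg1 and Zfas1, had a shared peak within 1000 bp of a coding start, so all 15 had a peak in both libraries near their start. Snhg8 had the highest value of the 8, with 9.19 in replicate 1 and 6.17 in replicate 2. Snhg15 had 6.35 and 4.69, and Snhg5 6.19 and 3.003. The lowest was Snhg20, with 2.02 and 2.10, so each of the 8 was above the lncRNA promoter median in both libraries. Of the 7 beside a coding start, Snhg18 had the lowest values, 0.646 and 0.877, below both medians. Snhg11, also of the 7, is annotated as protein-coding and so was outside the lncRNA classes chosen. The median over the 8 of the mean of both libraries was 3.68.

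Nuclear and widely expressed lncRNAs had a region at 7 of 8 genes, and the other, Tug1, had a shared peak near a coding start. Malat1, a very abundant RNA of nuclear speckles, had 8.67 in replicate 1 and 6.20 in replicate 2. Neat1, the scaffold of paraspeckles, had 2.51 and 2.30. Miat, a nuclear RNA known from neurons, had 1.81 and 1.60, and Pvt1, the neighbour of Myc, 1.03 and 1.35. Dancr had 6.004 and 3.18. Malat1 and Dancr were thus well above the lncRNA promoter medians in both libraries, while Pvt1 was near them.

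Imprinted loci express 1 parental copy, and their lncRNAs commonly silence the neighbouring coding genes. In this F1 cross the parental copies were not separated in the peak lists. Regions were found at 6 of 9 genes. Kcnq1ot1, which silences the Kcnq1 domain from the paternal copy, had 5.81 in replicate 1 and 2.49 in replicate 2. Meg3 had 3.25 and 1.81 at its higher region, centred 773 bp inside the gene, and 2.02 and 1.22 at the region over its start. Mirg, downstream in the same maternally expressed cluster, had 2.72 and 2.37. Values were low at Nespas, antisense at Gnas (1.03 and 0.980), at Airn, antisense to Igf2r (0.920 and 0.722), and at Snhg14, whose transcript runs antisense to Ube3a (0.310 and 0.351). The Snhg14 region has 69.1% of its 31-mers elsewhere in the genome. Peg13 had a shared peak near a coding start (2.86 and 2.09), and Rian and H19 had none. Peg13 is annotated as sense_intronic, which is outside the classes chosen.

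All 6 listed genes of the X inactivation centre and the X chromosome had a region. Xist, whose RNA spreads over the X chromosome that is silenced, had 0.964 in replicate 1 and 0.949 in replicate 2 at the highest of its 3 regions. Tsix, its antisense repressor, had 0.592 and 0.547. Both lay below the lncRNA promoter median of each library. Ftx, a neighbour known to favour Xist expression, had 9.21 and 4.86, and Jpx, another activator, 1.54 and 1.02. Firre, an X-linked RNA of nuclear organisation, had 5 regions, the highest with 2.26 and 1.83. The lists give 1 value for both X chromosomes, so the active and the inactive copy cannot be told apart.

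**Figure D5:**
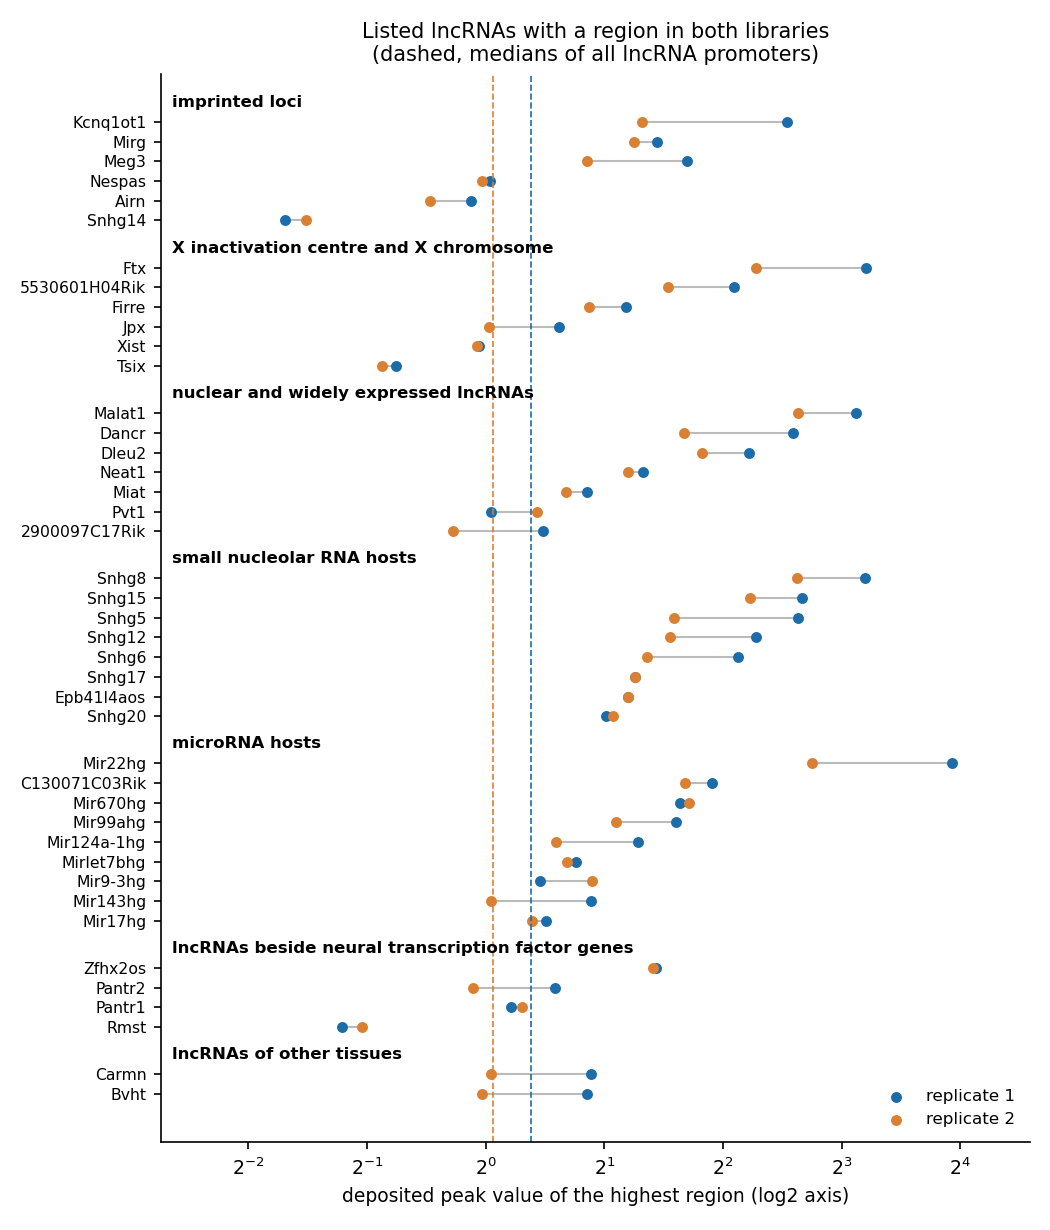
Deposited peak value (horizontal axis, log2 scale) of the highest region of each listed lncRNA with a region in both libraries, by list, for replicate 1 (blue) and replicate 2 (orange), with dashed lines at the medians of all lncRNA promoters (1.30 and 1.04). The 8 small nucleolar RNA hosts plotted lie to the right of both lines, and Snhg14, Tsix and Rmst lie furthest left; Mir143hg and Carmn are 1 gene.

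LncRNAs beside neural transcription factor genes had a region at 4 of 15 genes found in the annotation. Zfhx2os, antisense at Zfhx2, had 2.71 in replicate 1 and 2.65 in replicate 2. Pantr1 (1.16 and 1.24) and Pantr2 (1.50 and 0.929) flank Pou3f3, a factor of upper cortical and hippocampal neurons. Rmst had 0.433 and 0.485. Emx2os (3.67 and 2.72) and Dmrta2os (0.990 and 1.02) had shared peaks near a coding start. Sox2ot had a peak in each library that did not overlap the other. Sox1ot, annotated as sense_overlapping and so outside the classes chosen, had a peak in replicate 1 only. No peak was found within 1000 bp of a start of Dlx1as, Dlx6os1, Six3os1, Otx2os1, Lhx1os, Pax6os1 or Nkx2-2os. Dlx genes are known from interneuron precursors of the ventral forebrain, and Otx2 and Nkx2-2 from midbrain and ventral neural tube.

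Of 11 lncRNAs known from other tissues, 9 had no peak near their start in either library, among them Hotair, Hottip and Hotairm1 of the Hox clusters, and Fendrr of lateral mesoderm. The exceptions were Carmn, the muscle lncRNA that hosts miR-143, with 1.85 in replicate 1 and 1.03 in replicate 2, and Bvht with 1.80 and 0.980. Bvht and Carmn are neighbours. Carmn is also known from pericytes and smooth muscle of vessels, whose part in these values was not tested. The endothelium markers Cldn5 and Flt1 had no promoter peak in either library. Markers of pericytes and smooth muscle were not among those checked.

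The highest lncRNA promoter was at Gm42418, with 28.3 in replicate 1 and 48.6 in replicate 2 (chr17:39846781-39846920). This 140 bp region overlaps an annotated ribosomal RNA gene, and 82.7% of its 31-mers occur elsewhere in the genome. Next came Gm15564 (chr16:35981661-35981840), antisense in Kpna1, with 13.8 and 12.8, of whose 31-mers 56.0% occur elsewhere. The part of reads from other copies in these values was not tested. Such sequence was rare, since 22 of the 1475 regions (1.49%) had over 50% of their 31-mers elsewhere and 1323 (89.7%) had none.

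Single-copy sequence made up the rest of the 10 highest regions. 6720427I07Rik had 14.1 and 9.27 in replicates 1 and 2, with 9 footprints in each, and 1700028E10Rik had 12.3 and 8.57, with 7 in each. Gm12762 had 11.0 and 8.66, and its nearest coding start is that of Gpi1, 3705 bp away. Gm10655 (12.8 and 7.60) is 1606 bp from Tle3, a Groucho corepressor, and Gm10433 had 12.2 and 7.65. Gm13421 had 12.3 and 7.08, Tmem250-ps 10.4 and 7.84, and Mir22hg follows. Among antisense lncRNAs the next highest were 1700113A16Rik (11.9 and 6.28), 35409 bp from Mef2d, and AC154766.4 (5.08 and 5.46). These regions were picked as the highest by mean percentile, of all lncRNA promoters or of their class. As height was the rule of choice, their place in the highest 10% of all peaks in both libraries is a description only.

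Close to the median of the lncRNA promoters, at a mean percentile of 68.3 among all peaks of the libraries, were Gm15138 (1.38 in replicate 1 and 0.980 in replicate 2), D630033O11Rik (1.35 and 0.991) and 4933427E13Rik (1.04 and 1.19). Most footprints, summed over the libraries, were at 1810026B05Rik (9 and 11), followed by 4932412D23Rik (10 and 9), which lies 31745 bp from Zbtb20, a factor of hippocampal pyramidal neurons. C130073E24Rik (8 and 9) and 2410080I02Rik (9 and 7) were 1080 and 1100 bp wide, against a median of 255 bp. The 2410080I02Rik region lies 6026 bp from Klf9, a hormone-responsive factor.

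Several lncRNA genes had more than 1 region, around the same start or at different starts. The regions had 1223 distinct nearest genes, of which 1023 had 1 region, 165 had 2, 29 had 3 and 6 had 4 or more. Mir99ahg, host of miR-99a and let-7c, had 8, from chr16:77236101 to chr16:77679539. The highest had 3.04 in replicate 1 and 2.15 in replicate 2, and the lowest by mean 0.610 and 0.413. A330102I10Rik had 7 next to one another between chr13:29014141 and chr13:29016640, 60.4 to 62.7 kb from Sox4, with values of 0.407 to 0.955 in replicate 1 and 0.433 to 0.887 in replicate 2. Dleu2, host of miR-15a and miR-16, had 6 at 2 groups of starts. The highest of them had 4.65 and 3.54.

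The libraries ranked the regions alike. Spearman's correlation of the values of replicates 1 and 2 was 0.849 across the 1475 lncRNA promoters, 0.940 across coding promoters and 0.752 across distal regions, as a description over sites of the same 2 libraries. The value was higher in replicate 1 at 995 regions (67.5%), and the median log2 ratio of replicate 2 over replicate 1 was -0.23 with an SD of 0.52 across regions. Among the 613 regions above the member median in both libraries, the highest ratios were at Gm42418 (0.78), Gm11399 (0.75), CT025671.1 (0.61), AC163635.1 (0.60) and C230034O21Rik (0.60). The lowest were at 1700061E18Rik (-1.44), 1700023H06Rik (-1.42), the second Mir22hg region (-1.38), 4833428L15Rik (-1.29) and Kcnq1ot1 (-1.22). With 1 value per library these differences have no replicate check of their own. Of the 31-mers, 82.7% at Gm42418 and 28.4% at Gm11399 occur elsewhere in the genome, and none at the other regions named for their ratio.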

How the data were processed

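DNase-seq peaks and footprints of 2 libraries of 1 group, grouped by their labels, were taken from files that the authors deposited, whose build is mm10 per the labels. Neither the aligner nor the callers, nor the placing of CAST/EiJ alleles on the C57BL/6J assembly, is given in the sources used here. Each library has its own lists. The value of a peak is a signal on a scale that the authors deposited without stating it. Below 1 it moves in equal steps per library. Footprints carry 0.01 in the authors' deposited lists, read as a q-value threshold. The depth of the reads is unknown, which limits the precision of single values, and intervals cover counting error only.

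Lists were merged at 1 bp of overlap, and the highest value per library was kept. Starts and genes came from GENCODE M21 and sequence from RefSeq GRCm38.p6. Footprints were counted by their middle. CpG content and 16 motifs were read in 300 bp windows, and 31-mers were counted over the assembled chromosomes. Shares carry 95% Wilson intervals. With 1 group of 2 libraries no test was made. The regions and the 7 lists of 84 lncRNA symbols (7 not found, 2 matched by synonym) were chosen with earlier results of these data known. Named were the 10 highest regions by mean percentile, the 3 highest of each class, the 5 highest and 5 lowest ratios between libraries among regions above the median in both, the 5 with most footprints, the 3 genes with most regions, the 3 regions closest to the median, and the listed lncRNAs. Other names were chosen after their values were seen.

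Alternatives tried were the shorter lists, 50% reciprocal overlap, equal peak numbers, windows of 500 bp and 2.5 kb, an exclusion of 5 kb, gene starts alone, distances from the middle of a region and each replicate left out. The procedures were tested on simulated data, where 6 of 6 checks were recovered. The tools were Python 3.11.15, NumPy 2.4.6 and pandas 2.3.3, with SciPy 1.17.1 for ranks and Matplotlib 3.10.9 for plots.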

Additional observations from a re-analysis of the deposited data

How the results depend on the processing

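The number of regions, 1475, was 854 with the shorter peak lists, 2290 with a window of 2.5 kb around lncRNA starts, and 1803 to 2697 with 1 replicate left out. The median peak value, 1.17, was 1.68 with the shorter lists and 0.822 to 0.908 with 1 replicate left out. The share with a footprint in both libraries, 76.5%, was 90.9% with the shorter lists, 82.1% with a reciprocal overlap of 50%, 83.5% with equal numbers of peaks, and 71.0% to 75.9% with 1 replicate left out, where footprints of that library alone were counted. The median CpG ratio, 0.427, was 0.475 with the shorter lists, 0.448 with a window of 500 bp, 0.378 with 2.5 kb and 0.353 to 0.430 with 1 replicate left out. The share of lncRNA genes with a region, 14.98%, was 9.36% with the shorter lists, 14.1% with gene starts alone and 16.3% to 23.6% with 1 replicate left out. Leaving out replicate 2 gave 2697 regions and 23.6% of genes, because a region then needs a peak in 1 library. The other alternatives gave 1125 to 1431 regions, median values of 1.13 to 1.35, footprint shares of 75.5% to 76.9% and CpG ratios of 0.409 to 0.433. One of them, over 1 kb from every start of a protein-coding gene, was chosen after seeing the data. The cause of the other differences was not tested. No paired analysis was possible because the labels give 1 group. Replicate 2 had fewer peaks, so regions absent from it may lie under its threshold, and the 2 libraries may be technical repeats.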

Other observations

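The lncRNA promoters were spread over all autosomes and chromosome X. They made up 2.52% of the shared regions on chromosome 15 and 3.47% on chromosome X, with the highest share on chromosome 13 (4.24%, 108 regions) and the lowest of the autosomes and X on chromosome 8 (1.84%, 56 regions). Of the autosomes and X, chromosome 8 also had the smallest share of lncRNA genes with a region, 47 of 463 (10.2%), and chromosome 17 the largest, 66 of 332 (19.9%). Genes with a region had a median length of 9.12 kb, and genes without one 6.50 kb. A region was found at 22.6% (19.1 to 26.7) of the 464 genes whose symbol is a name, and at 14.5% (13.8 to 15.3) of the 7787 whose symbol is of the Gm, Rik or clone kind. Repeats covered 50% or more of the window in 17 regions (1.15%) and in 1.18% of all shared regions. In the 17, the median values were 1.07 in replicate 1 and 0.784 in replicate 2.

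Regions in the body of a protein-coding gene had median values of 1.26 in replicate 1 and 0.980 in replicate 2 (n = 363), against 1.30 and 1.09 for those outside (n = 1112). They were CpG-rich at 25.9%, against 26.0% outside. The stricter lists of both libraries held 48.2% of them (43.1 to 53.3) and 61.3% (58.4 to 64.1) of those outside.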
